A study of Rattus norvegicus with 23 samples.

Results

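The entries described here are microRNAs (miRNAs) that were named in one of a pair of count tables made from the same small RNA libraries and not in the other. The tables carry the names of the counting tools Chimira and sRNAbench. An entry was a member when its name, in lower case, occurred in the Chimira table and did not occur in the sRNAbench table. Of 627 Chimira entries, 34.3% met this rule, 185 entries with at least 1 count and 30 with none, and the other 65.7% were named in both tables. The rule used names alone and no measured value. Being named in both tables went with abundance, however, with a median total of 1005 counts against 3 for members. The low totals of members described below may thus be built into the rule, which was not tested.

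The libraries came from rat PC12 cells, a line derived from a pheochromocytoma of the adrenal medulla. The cells had been transfected with the pcDNA3 vector, either empty (the vector line) or expressing α1ACT with 11 glutamine repeats and a 3xFlag tag at its C-terminal end (the α1ACT line), and both lines were under G418 selection. α1ACT is a transcription factor translated from the CACNA1A calcium channel transcript. The sources used here do not say how many clones each line holds, and expression was not inducible as far as the labels say, so each line is compared as it was kept. RNA was taken at 6 h, 24 h, 3 d and 10 d after the cells were split, which gave 23 libraries in 8 groups: 2 of the vector line at 6 h and 3 of each other group. The labels do not say whether replicates were grown as separate cultures. The p-values therefore reflect only how much these libraries vary, which may be technical.

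A miRNA is cut from a hairpin precursor, and either arm of the hairpin, named 5p or 3p, can be loaded onto an Argonaute protein. The loaded strand finds messenger RNAs mainly through its seed, bases 2 to 8, so that miRNAs with one seed form a family with overlapping targets. One arm usually accumulates far above the other, and a hairpin that sits inside a protein-coding gene is often transcribed with it. PC12 cells are known for a set of endocrine miRNAs led by miR-375.

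Mature sequences were found in the RefSeq table (GRCr8) for 84.7% of the members, and for 18 of the 28 that had counts in all 8 groups. The first set below holds the members with enough counts to be tested for which a sequence was found, followed by miR-28-5p, the untested member with most counts. The seed is in capitals and each sequence reads from its 5′ end. Beside miR-215 and miR-28-5p stand the entries of both tables that carry the same seed.
miR-3473: uCUAGGGCuggagagauggcua
miR-185-3p: uUUCCUCUgguccuucucu
miR-215: aUGACCUAugauuugacagaca
miR-192-5p: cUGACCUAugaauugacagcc
miR-149-3p: gGGACGGGggcggugcug
miR-365-5p: gAGGGACUuucaggggc
miR-28-5p: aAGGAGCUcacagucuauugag
miR-708-5p: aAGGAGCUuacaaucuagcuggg

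In GRCr8, miR-3473 lies at chr13:42051730-42051751 on the plus strand within Zranb3, and miR-185-3p at chr11:96169085-96169103 on the plus strand within Tango2. The mature miR-215 lies at chr13:99383003-99383024 on the plus strand within Iars2. For miR-149-3p the position is chr9:100861860-100861877 on the plus strand within Gpc1. The 365-5p sequence belongs to Mir365b at chr10:65184231-65184247 on the plus strand within Faul2, and miR-28-5p is at chr11:89480303-89480324 on the minus strand within Lpp. Host genes were taken from the gene spans without regard to strand, and whether the sequence lies in an exon or an intron was not determined.

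The second set shows members that are encoded on the opposite strand of an abundant miRNA, each above its partner. They are printed because their counts stand far below those of the partner strand.
miR-3596d: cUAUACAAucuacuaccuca
let-7f-5p: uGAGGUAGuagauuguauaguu
miR-3553: cAGUGAAUucuaccagugccaua
miR-183-5p: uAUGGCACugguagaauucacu
miR-3574: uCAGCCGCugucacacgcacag
miR-210-3p: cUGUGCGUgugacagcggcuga

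Total counts per library ran from 458949 to 5142147 in the Chimira table. In a check over 98 entries of both tables, the relative levels of 21 of the 23 Chimira columns matched the sRNAbench column of the same name best. The other two, the second vector replicates of 6 h and of 10 d, each matched the sRNAbench column of the other, and they were exchanged before any value below was computed. Which table holds the right names was not tested, and results that rest on this pair are given with the columns as named as well. The endocrine marker miR-375-3p took 14.5% of all counts. The neuroendocrine list of 12 entries that holds it was uneven. On it miR-182 had 1900951 counts, while miR-7a-5p had 568 and miR-7b had 242. Of the 14 entries on a blood and serum list, 13 had counts and 1 was at 0, and their summed level was 4.60 to 11.7 CPM in vector libraries and 5.52 to 15.2 CPM in α1ACT libraries. CPM stands for counts-per-million values, which use TMM scaling factors (trimmed mean of M values) throughout. 1 count was worth between 0.190 and 2.07 CPM depending on the library.

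The members together held 434924 of 61237960 counts, or 0.710%. Their share per library ran from 0.527% to 0.921%, with a median of 0.749% over the vector libraries and 0.679% over the α1ACT libraries. Only 3 members made up 98.0% of these counts. miR-335 alone had 261737 counts (60.2% of the members' total), miR-15a-5p had 82445 and miR-30b-5p had 81878, and by total they ranked 31, 57 and 59 among the 627 entries. Without these 3, the members' share of a library lay between 0.00969% and 0.0183%.

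Most members were close to absent. 30 members had 0 counts in all 23 libraries, which allows a level of up to 0.0490 CPM (3 counts over all libraries, counting error only). With these, 168 members had under 10 counts in all, 54 of them a single count. 32 members had 10 to 99 counts, 10 had from 100 to under 1000, and 5 had 1000 or more. The median total was 3 counts for members against 1005 for entries named in both tables. Counts in all 8 groups were found for 28 members, and 12 had counts in all 23 libraries. 41 members were counted only in the vector line and 37 only in the α1ACT line, and the largest total among these was 13.

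**Figure D1:**
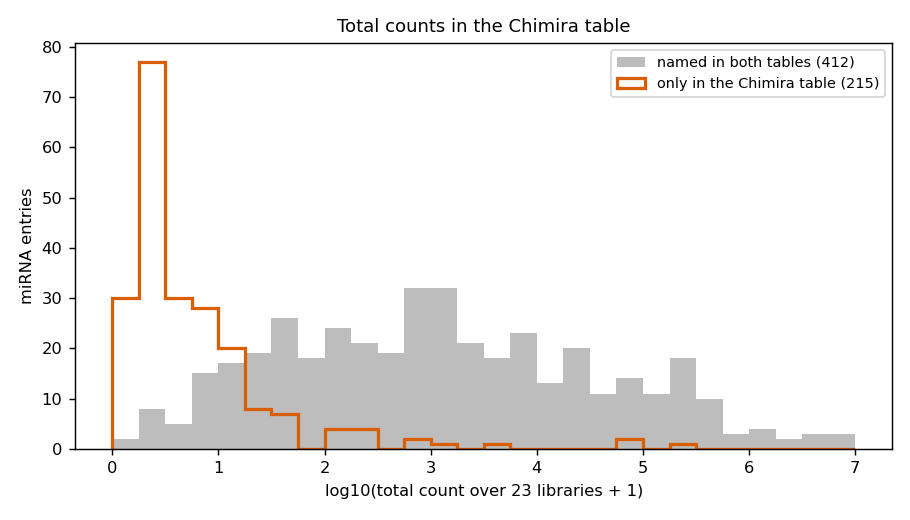
Histogram of the total count per miRNA entry over 23 libraries, as log10(total + 1) on the x axis and number of entries on the y axis; filled bars are the entries named in both tables and the outlined bars the members. The members pile up at 0 to 9 counts, and the 3 at the far right are miR-335, miR-15a-5p and miR-30b-5p.

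A low-count filter over the whole table left 305 entries for testing, and 13 members passed it, which is 6.05% of the members against 70.9% of the entries named in both tables. The tested member with the lowest total was miR-486, and the untested member with the highest was miR-28-5p (104 counts). A member could pass by being high in 1 group, so statements about the 13 do not extend to all members. In order of mean CPM they were miR-335 (4239.6 CPM), miR-15a-5p (1340.3), miR-30b-5p (1335), miR-3473 (56.2), miR-30b-3p (20.9), miR-185-3p (15.7), miR-215 (10.1), miR-149-3p (4.96), miR-320-5p (4.70), miR-352 (3.80), miR-3084b-3p (3.24), miR-365-5p (3.00) and miR-486 (2.68). The SD over the 23 libraries, which takes in lines and times, was 133.7 CPM for miR-15a-5p and 161 CPM for miR-30b-5p. Their means differ by less than this SD, as do neighbouring means from miR-149-3p down to miR-486 by less than 1 SD. Whether neighbours differ within libraries was not tested, so the order among them is a description only.

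The first comparison asks whether the lines differ. Averaged over the 4 times, miR-335 and miR-320-5p were lower in the α1ACT line than in the vector line, and no member was higher. These are 2 of 13 tested members. Of all tested entries, 11.1% passed in either direction, with 6.56% higher and 4.59% lower in that line. The median log2 fold change was -0.08 over the tested members and 0.00 over all tested entries, with 8 members negative and 5 positive.

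miR-335, which lies within the imprinted gene Mest and is on the neuroendocrine list, was the most abundant member. The vector libraries held 4210.5 and 4901 CPM at 6 h, 6338, 5819 and 5379.6 CPM at 24 h, 2959, 2787 and 3885 CPM at 3 d, and 5251, 4985 and 5245 CPM at 10 d. The α1ACT libraries held 4321, 3519 and 4213 CPM at 6 h, 5083, 5058 and 4365 CPM at 24 h, 2146, 2801 and 2848 CPM at 3 d, and 3001, 4459 and 3939 CPM at 10 d. The lines overlapped at 6 h and 3 d, and at 24 h and 10 d every α1ACT library lay below every vector library. The fitted difference over the 4 times was -0.30 on the log2 scale (SE 0.07), a 1.23-fold lower level, with an adjusted p of 0.0050 in the quasi-likelihood F test of edgeR, Benjamini-Hochberg adjusted over 305 entries. Its call held in 31 of 31 alternative fits.

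By time, the miR-335 differences were -0.18 (SE 0.15) at 6 h, -0.27 (SE 0.14) at 24 h, -0.31 (SE 0.14) at 3 d and -0.44 (SE 0.14) at 10 d on the log2 scale. None of the 13 members passed the test at a single time. Of all tested entries, 0.0% passed at 6 h and at 3 d, 0.656% at 24 h (0.328% higher and 0.328% lower), and 1.97% at 10 d (1.31% higher and 0.656% lower). In order of time, the unadjusted p in edgeR was under 0.05 for 1, 0, 2 and 2 of the 13 members. Among all 305 tested entries it was under 0.05 for 40, 39, 25 and 40. At 10 d miR-335 came closest, with an adjusted p of 0.0790 in edgeR. That difference passed with DESeq2 (-0.49, adjusted p 0.0226), without the low-count filter (-0.47, adjusted p 0.00323 in edgeR) and without α1ACT 10 d replicate 2 (-0.57, adjusted p 0.0423 in edgeR). The interaction of line and time was called for 0 members and for 0.0% of all entries in edgeR, with 0 members and 18 entries at an unadjusted p under 0.05. So the larger difference at 10 d than at 6 h was not shown to depend on time.

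**Figure D2:**
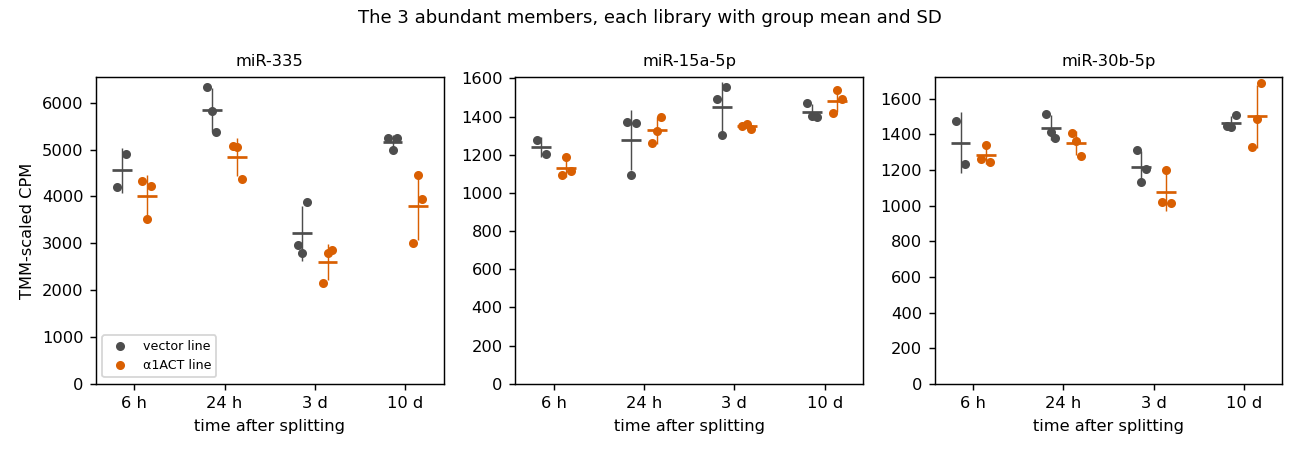
TMM-scaled CPM (y axis, from 0) of the 3 abundant members at 4 times after splitting (x axis); each point is a library, grey for the vector line and orange for the α1ACT line, with a bar at the group mean and a line of 1 SD to each side. miR-335 is lowest at 3 d in both lines, and its α1ACT points lie below all vector points at 24 h and 10 d.

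miR-320-5p was the other member lower in the α1ACT line. It is the minor arm of a hairpin known to be processed without Drosha, and it was scarce, with 311 counts in all. The vector line gave 3.46 and 3.52 CPM at 6 h, 8.01, 1.62 and 5.05 CPM at 24 h, 2.07, 11.1 and 9.10 CPM at 3 d, and 4.86, 10.6 and 6.25 CPM at 10 d. The α1ACT line gave 2.09, 1.40 and 1.07 CPM at 6 h, 3.41, 5.19 and 3.13 CPM at 24 h, 5.94, 1.70 and 3.94 CPM at 3 d, and 4.74, 5.96 and 3.91 CPM at 10 d. The lines were apart at 6 h and overlapped at the 3 later times. The fitted difference was -0.81 on the log2 scale (SE 0.26; adjusted p = 0.0418, edgeR), and the adjusted p lay between 0.0109 and 0.131 over the alternatives. Leaving out any of 15 libraries lost the call, with log2 differences of -0.89 to -0.63 and adjusted p-values of 0.05002 to 0.131 in edgeR. These were vector 6 h replicates 1 and 2, 24 h replicate 1, 3 d replicate 2 and 10 d replicates 2 and 3, and α1ACT 6 h replicates 1, 2 and 3, 24 h replicates 1 and 3, 3 d replicates 2 and 3, and 10 d replicates 1 and 3. The call was also lost with both exchanged libraries left out (-0.72, adjusted p = 0.125 in edgeR). The abundant arm, miR-320-3p (421 CPM), differed by 0.08 (SE 0.09) between the lines, with an adjusted p of 0.589 in edgeR.

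miR-15a-5p and miR-30b-5p did not pass the test between the lines. Their log2 differences over the 4 times were -0.03 (SE 0.05) and -0.08 (SE 0.05). For miR-15a-5p the sign depended on the scaling, since it was 0.03 with upper-quartile factors and 0.03 with library totals. Among the relatives of miR-30b-5p, miR-30a-5p (63632 CPM) and miR-30c-5p (6176 CPM) were lower in the α1ACT line, by -0.25 (SE 0.04) and -0.27 (SE 0.06) on the log2 scale. Their adjusted p-values in edgeR were 0.000196 and 0.00369, and whether miR-30b-5p differed from them in its response was not tested. On the miR-30 list, 4 of the 9 other tested entries were lower and 0 higher in the α1ACT line, beside 4.59% lower and 6.56% higher among all tested entries.

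**Figure D3:**
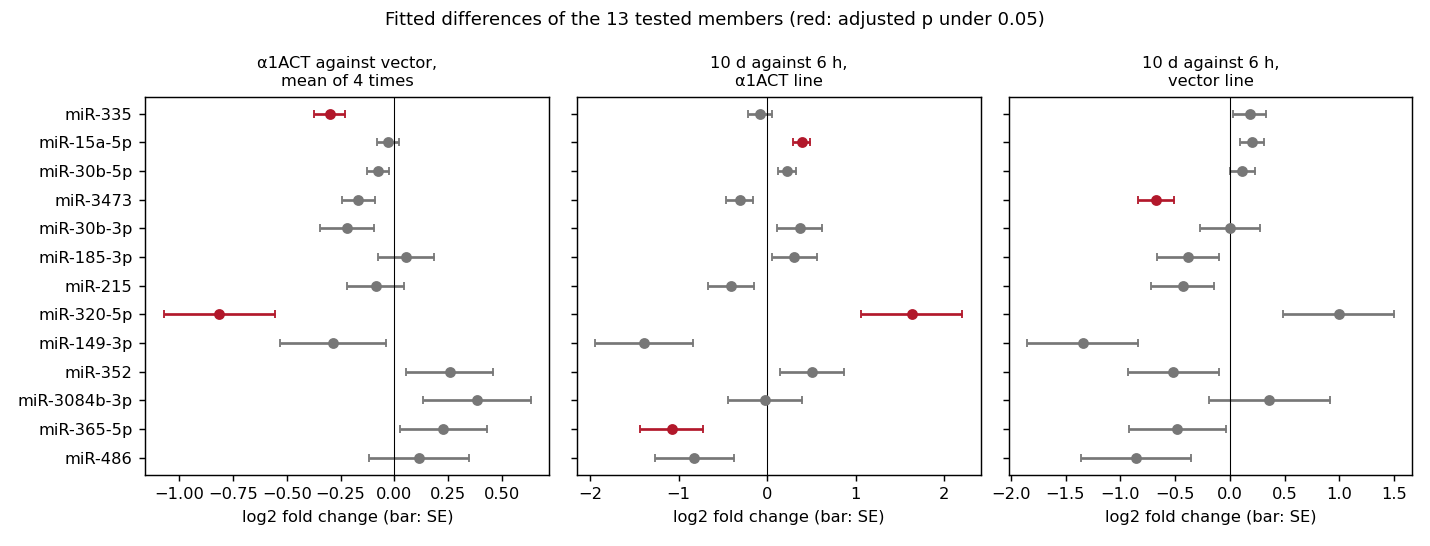
Fitted log2 fold changes (x axis, bars of 1 SE) of the 13 tested members (y axis, most abundant at the top) for the α1ACT line against the vector line and for 10 d against 6 h in each line; red points passed an adjusted p of 0.05. miR-335 and miR-320-5p are the red points of the first panel, and the bars widen down the list as the counts fall.

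The next comparisons ask how the members moved with time after splitting. Over the 4 times, 6 of 13 tested members changed in the α1ACT line (miR-335, miR-30b-5p, miR-15a-5p, miR-3473, miR-149-3p and miR-365-5p), where 46.9% of all tested entries did. Among vector libraries 4 of 13 changed (miR-335, miR-3473, miR-215 and miR-30b-3p), where 39.3% of all did. Both counts are near the background. At 10 d against 6 h, 3 of 13 members passed in the α1ACT line, where 28.5% of all entries did, and 1 of 13 in the vector line, where 14.1% did. The 2 higher members in the α1ACT line were miR-15a-5p and miR-320-5p (10.2% of all entries were higher), and the lower one was miR-365-5p (18.4% were lower). The single vector call was the lower miR-3473 (9.51% were lower). Since the lines were compared at the same times but not with each other here, a call in 1 line alone does not show that the lines differ.

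miR-335 moved most clearly among the abundant members. In each line all 3 d libraries lay below all libraries of the other 3 times, and all 24 h libraries lay above all 6 h libraries. The group means of the vector line were 4556 CPM ± 488.1 (SD, n = 2) at 6 h, 5846 ± 479.6 (n = 3) at 24 h, 3210.2 ± 590.4 (n = 3) at 3 d and 5160.05 ± 151.9 (n = 3) at 10 d. The group means of the α1ACT line were 4018 ± 435, 4835 ± 408, 2598 ± 392 and 3799 ± 739 CPM (n = 3 each) in the same order. The F test of time on 3 degrees of freedom gave adjusted p-values of 0.000143 in the vector line and 8.49e-05 in the α1ACT line (edgeR), and both calls held in 31 of 31 alternatives. Between 6 h and 10 d the fitted differences of 0.18 (SE 0.15) in the vector line and -0.08 (SE 0.14) in the α1ACT line did not pass.

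miR-15a-5p, the partner of miR-16 in the miR-15/16 cluster, rose with time in the α1ACT line. Its levels there were 1095, 1189.9 and 1115 CPM at 6 h, 1259.9, 1326 and 1399 CPM at 24 h, 1353, 1363 and 1336 CPM at 3 d, and 1421, 1537 and 1492 CPM at 10 d. The 6 h libraries were the 3 lowest and the 10 d libraries the 3 highest of the line. At 10 d it was 0.39 higher than at 6 h on the log2 scale (SE 0.10; adjusted p = 0.00381, edgeR), and this call held in 31 of 31 alternatives. The F test of time gave an adjusted p of 0.0152 in edgeR, which became 0.0634 without α1ACT 6 h replicate 1 and 0.0522 with library totals. Vector libraries held 1278 and 1203 CPM at 6 h, 1369, 1095 and 1365 CPM at 24 h, 1492, 1304 and 1556 CPM at 3 d, and 1474, 1404 and 1399 CPM at 10 d. There the 10 d libraries also lay above the 6 h libraries, and the difference of 0.20 (SE 0.11; adjusted p = 0.219, edgeR) did not pass. With the columns as named these groups overlap, and the difference was 0.0185 (adjusted p = 0.995, edgeR). Its relatives miR-16-5p (24521 CPM) and miR-15b-5p (203.4 CPM) were not members, and their F tests of time passed in both lines. From 6 h to 10 d miR-16-5p changed by 0.17 (SE 0.11) in the α1ACT line and 0.15 (SE 0.12) in the vector line. miR-15b-5p changed by -0.34 (SE 0.15) and -0.32 (SE 0.16) in the same order, and none of these changes passed. miR-15b-5p had 12024 counts in the Chimira table and 25806 in the sRNAbench table.

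miR-30b-5p was lowest at 3 d, as miR-335 was. In the α1ACT line it stood at 1262, 1343 and 1248 CPM at 6 h, 1409.8, 1363 and 1279 CPM at 24 h, 1018, 1198 and 1016 CPM at 3 d, and 1329.8, 1487 and 1686 CPM at 10 d. Every 3 d library lay below every library of the other times, and the F test of time gave an adjusted p of 0.00354 in edgeR, a call held in 31 of 31 alternatives. The vector line gave 1474 and 1233 CPM at 6 h, 1516, 1414 and 1381 CPM at 24 h, 1312, 1132 and 1206 CPM at 3 d, and 1445, 1441 and 1509.7 CPM at 10 d. Its 3 d libraries were below those of 24 h and 10 d and overlapped with 6 h (with the columns as named, they were below 6 h and overlapped with 10 d), and the F test did not pass (adjusted p = 0.124, edgeR); it passed without vector 6 h replicate 1 (adjusted p = 0.0462, edgeR) and with upper-quartile factors (0.0234).

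**Figure D4:**
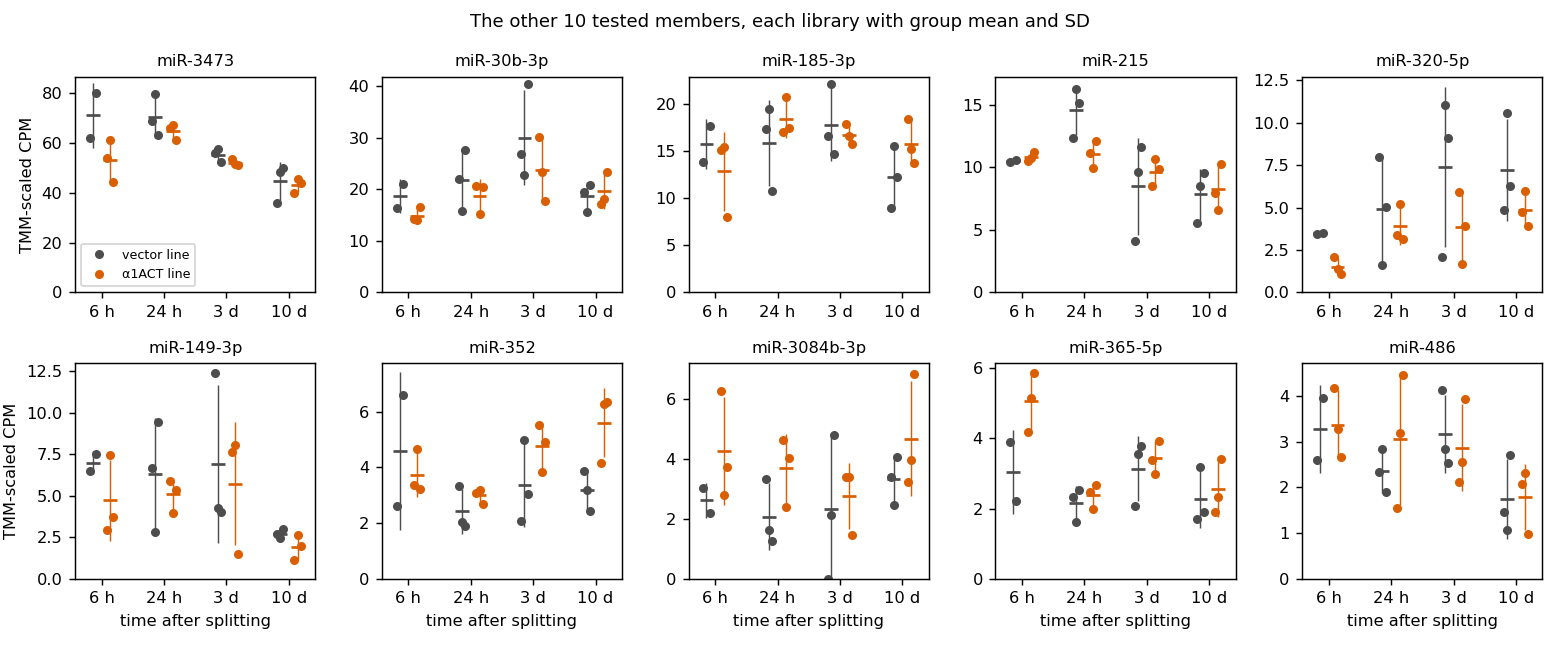
TMM-scaled CPM (y axes, from 0 and different for each panel) of the other 10 tested members at 4 times after splitting (x axes); points are libraries, grey for vector and orange for α1ACT, with group means and lines of 1 SD to each side. With the 2 columns exchanged, miR-3473 is lowest at 10 d in both lines, and the scatter within groups is wide for the members below 10 CPM.

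miR-3473 was lower at 10 d than at 6 h in the vector line. Its values in the vector line were 61.9 and 80.2 CPM at 6 h, 68.7, 79.5 and 63.1 CPM at 24 h, 55.8, 57.4 and 52.3 CPM at 3 d, and 35.7, 48.4 and 49.8 CPM at 10 d. In the α1ACT line they were 54.0, 61.2 and 44.3 CPM at 6 h, 66.0, 67.0 and 61.2 CPM at 24 h, 53.5, 51.4 and 51.2 CPM at 3 d, and 39.8, 45.7 and 44.0 CPM at 10 d. In both lines the 10 d libraries lay below all 24 h and 3 d libraries, and in the vector line also below both 6 h libraries. With the columns as named, the vector 10 d libraries overlapped with those of every other time. The change from 6 h to 10 d was -0.68 in the vector line (SE 0.16; adjusted p = 0.00451, edgeR) and -0.31 in the α1ACT line (SE 0.15; adjusted p = 0.128). The vector call rests on the exchanged pair: it was -0.02 with the columns as named (adjusted p = 0.995, edgeR) and -0.51 with both left out (0.227). It was also lost without vector 6 h replicate 2 (-0.46, adjusted p = 0.229) or vector 10 d replicate 1 (-0.51, adjusted p = 0.0634). The F tests of time gave adjusted p-values of 0.00205 in the vector line and 0.0156 in the α1ACT line (edgeR). The first became 0.379 with the columns as named, and the second 0.1004 with the columns as named, 0.0687 without α1ACT 10 d replicate 1 and 0.0567 without α1ACT 24 h replicate 2.

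The miR-3473 sequence is related to the rodent B2 repeat. Letters 5 to 21 of it, GGGCTGGAGAGATGGCT, were found on either strand in 82 of 33469 RefSeq promoter windows of GRCr8, or 0.245%. The same letters of 13 other members of at least 21 bases and 20 counts were found in 0 windows. Reads of other copies of the repeat could be counted in this entry, and how far they were was not tested.

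miR-149-3p, whose hairpin lies in Gpc1, stood in the α1ACT line at 2.93, 7.47 and 3.74 CPM at 6 h, 5.88, 3.99 and 5.36 CPM at 24 h, 7.64, 8.08 and 1.48 CPM at 3 d, and 1.14, 2.65 and 1.96 CPM at 10 d. All its 10 d libraries lay below all 6 h libraries, and the F test of time gave an adjusted p of 0.0298 in edgeR. That call was lost without α1ACT 10 d replicate 1 (0.261) or replicate 3 (0.0648), without α1ACT 3 d replicate 1 (0.0615) or replicate 2 (0.0638), with the columns as named (0.0922) and with upper-quartile factors (0.0518). From 6 h to 10 d its difference was -1.39 (SE 0.55; adjusted p = 0.0593) in the α1ACT line and -1.34 (SE 0.51; adjusted p = 0.0774) in the vector line, in edgeR. Without the low-count filter both passed (adjusted p = 0.0342 and 0.0468), as they did without α1ACT 3 d replicate 3 (0.0351 and 0.0455). The vector difference rests on the exchanged pair, since it was -0.11 with the columns as named (adjusted p = 0.995, edgeR) and -1.16 with both left out (0.375). The abundant arm, miR-149-5p (151.8 CPM), fell by 1.06 (SE 0.14) and by 0.89 (SE 0.15) on the log2 scale in these comparisons, with adjusted p-values of 3.95e-07 and 5.64e-05 in edgeR. In vector libraries miR-149-3p stood at 6.49 and 7.49 CPM at 6 h, 6.67, 2.84 and 9.46 CPM at 24 h, 12.4, 4.28 and 4.05 CPM at 3 d, and 2.67, 2.47 and 2.99 CPM at 10 d, and there too the 10 d libraries lay below those of 6 h, although the groups overlap with the columns as named. The estimates for both arms had the same sign in both lines.

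miR-365-5p was lower at 10 d than at 6 h in the α1ACT line. It stood there at 4.19, 5.14 and 5.87 CPM at 6 h, 2.48, 1.99 and 2.68 CPM at 24 h, 3.40, 2.98 and 3.94 CPM at 3 d, and 1.90, 2.32 and 3.42 CPM at 10 d. All 6 h libraries lay above all libraries of the later times. The fitted change was -1.08 (SE 0.36; adjusted p = 0.0225, edgeR), and the F test of time gave an adjusted p of 0.0412 in edgeR. The call from 6 h to 10 d was lost with DESeq2 (0.120), without the filter (0.119) and without α1ACT 6 h replicate 3 (-0.96, adjusted p = 0.0982), 10 d replicate 1 (-0.84, 0.156) or 10 d replicate 2 (-1.06, 0.0505). The F test was lost in 15 of 31 alternatives. The vector libraries held 3.89 and 2.20 CPM at 6 h, 2.34, 1.62 and 2.52 CPM at 24 h, 2.07, 3.56 and 3.79 CPM at 3 d, and 1.70, 3.18 and 1.90 CPM at 10 d, with overlap between all times. The vector change from 6 h to 10 d was -0.48 (SE 0.44) and did not pass. With the columns as named it was -0.87 (adjusted p = 0.995, edgeR) and the 10 d libraries lay below those of 6 h. Its other arm, miR-365-3p, had a mean of 17.6 CPM and was not called in these comparisons.

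The arms of miR-320 moved in opposite directions in the α1ACT line. miR-320-5p rose by 1.63 on the log2 scale between 6 h and 10 d (SE 0.57; adjusted p = 0.0328, edgeR), from 1.52 CPM ± 0.523 to 4.87 CPM ± 1.03 (SD, n = 3 each), with no overlap. miR-320-3p fell by 0.47 (SE 0.17; adjusted p = 0.0359, edgeR), from 527 ± 116 to 379.3 ± 32.1 CPM (SD, n = 3 each). The 5p call was lost without any 1 of 5 α1ACT libraries, with log2 changes of 1.47 to 1.94 and adjusted p-values of 0.0545 to 0.104 in edgeR. These were the 6 h replicates 1, 2 and 3 and the 10 d replicates 1 and 2, and the call was also lost with the columns as named (0.0527). At 6 h the 3 α1ACT libraries held 10 counts of the 5p arm in all. The 5p change in the vector line was 0.99 (SE 0.51; adjusted p = 0.190, edgeR), and it was -0.53 with the columns as named. With the columns exchanged, the 3p change in the vector line was 0.21 (SE 0.19, adjusted p = 0.482 in edgeR). Opposite directions of the arms were thus not seen in that line.

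miR-215 and miR-30b-3p were called over time in the vector line. miR-215 gave 10.4 and 10.6 CPM at 6 h, 12.3, 16.2 and 15.1 CPM at 24 h, 4.13, 9.62 and 11.6 CPM at 3 d, and 5.59, 8.48 and 9.52 CPM at 10 d. Its 24 h libraries lay above all others of the line, and the F test gave an adjusted p of 0.0303 in edgeR. The call was lost without vector 24 h replicate 2 (0.133) or replicate 3 (0.0713), without vector 10 d replicate 1 (0.106), with the columns as named (0.103), without the exchanged pair (0.0587), with DESeq2 (0.0744) and without the filter (0.0855). The α1ACT line gave 10.5, 10.7 and 11.2 CPM at 6 h, 11.1, 9.97 and 12.1 CPM at 24 h, 8.49, 10.6 and 9.85 CPM at 3 d, and 7.96, 6.62 and 10.3 CPM at 10 d, where the 10 d libraries lay below those of 6 h and the F test did not pass. miR-192-5p, with the same seed and a similar sequence, stood at 4186 CPM, and its F tests passed in both lines. From 6 h to 10 d its log2 change was 0.34 (SE 0.09, adjusted p = 0.00665 in edgeR) in the α1ACT line. In the vector line it was 0.27 (SE 0.11, adjusted p = 0.0872 in edgeR). The 10 d libraries of miR-215 lay below its 6 h libraries in both lines, though the vector groups overlap with the columns as named. miR-192-5p had 261540 counts against 611 for miR-215, and whether some of its reads were counted as miR-215 was not tested. It was higher in the α1ACT line over the 4 times by 0.17 (SE 0.05; adjusted p = 0.0211, edgeR), where miR-215 differed by -0.09 (SE 0.13; adjusted p = 0.698).

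miR-30b-3p, the minor arm of miR-30b, gave 16.4 and 21.1 CPM at 6 h, 22.0, 15.8 and 27.8 CPM at 24 h, 26.9, 22.8 and 40.5 CPM at 3 d, and 19.4, 15.6 and 20.9 CPM at 10 d in the vector line. The 3 d libraries lay above those of 6 h and 10 d, and the highest was replicate 3. The F test gave an adjusted p of 0.0346 in edgeR. It became 0.623 without vector 3 d replicate 3, 0.0642 without vector 6 h replicate 1, 0.0680 without vector 10 d replicate 2, 0.0515 with the columns as named, 0.0790 without the exchanged pair and 0.129 with upper-quartile factors. The α1ACT line gave 14.2, 14.0 and 16.6 CPM at 6 h, 20.7, 15.2 and 20.5 CPM at 24 h, 30.1, 23.4 and 17.7 CPM at 3 d, and 17.2, 18.2 and 23.5 CPM at 10 d, and the F test did not pass there. At 3 d the 5p arm was at its lowest in that line and the 3p arm at its highest, by vector group means of 1217 ± 90.3 and 30.05 ± 9.24 CPM (SD, n = 3).

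The remaining tested members were called in no comparison. miR-185-3p, from a hairpin in Tango2, stood between 8.01 and 22.1 CPM over all libraries. It was more abundant than miR-185-5p, with 957 counts against 444, a ratio of 2.16, although the 3p arm is the member. miR-352 ran from 1.89 to 6.61 CPM and miR-3084b-3p from 0 to 6.85 CPM. miR-486, a miRNA of red blood cells, ran from 0.978 to 4.47 CPM and was the single tested member on the blood and serum list. The 6 h and 10 d libraries of miR-486 did not overlap in the α1ACT line, with a log2 change of -0.82 (SE 0.45; adjusted p = 0.167, edgeR).

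Among the 202 untested members, miR-28-5p (104 counts), miR-29b-1-5p (100 counts) and miR-6320 (53 counts) had the highest totals. miR-28-5p was the dominant arm of its hairpin, as miR-28-3p had 3 counts. From 6 h to 10 d it gave 12, 16, 2 and 24 counts per group in the α1ACT line, and 6, 14, 10 and 20 counts in the vector line. These are sums not scaled for depth. The 2 vector libraries of 6 h held 2278556 and 2312734 counts in all, and the 3 of 10 d held 3126002 to 4408681. Fitted without the low-count filter, the F test of time for miR-28-5p in the α1ACT line gave an adjusted p of 0.0396 in edgeR. Its seed partner miR-708-5p (12.5 CPM) was higher in the α1ACT line by 1.12 on the log2 scale (SE 0.20; adjusted p = 0.000196, edgeR). miR-29b-1-5p is the minor arm of a hairpin whose 3p arm, miR-29b-3p, had 23109 counts.

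Members were unevenly spread over the miRNA families and clusters listed for this work, but they were also scarce as a whole. Shares among entries of like abundance were not computed, and no listed entry of the Dlk1-Dio3 or X-linked clusters had over 50 counts. Of the 35 Chimira entries listed for the Dlk1-Dio3 cluster, a maternally expressed group of miRNAs that is abundant in brain, 29 (82.9%) were members. The share was 34.3% of the whole table. 21 of these 29 had counts, and none was tested. Of these 29, miR-433-5p (50 counts) and miR-544-5p (22 counts) had counts in all 8 groups. So did miR-3544 (22 counts), a member not on the list, which lies within Mir337 between miR-493 and miR-433. Summed over the 35 listed entries, the cluster stood at 1.06 to 4.30 CPM in vector libraries and 1.96 to 5.81 CPM in α1ACT libraries. The X-linked cluster known from germ cells had 15 members among 21 entries (71.4%), with 37 counts. All 7 entries of the repeat-rich group of miR-297 and miR-466 were members, led by miR-297 with 48 counts and miR-466b-5p with 39.

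On the neuronal list 12 of 48 entries (25%) were members. They had 41 counts in all, and none was tested. Of the 25 other tested entries of that list, 6 were higher and 0 lower in the α1ACT line over the 4 times, where 6.56% of all tested entries were higher and 4.59% lower. The let-7 family (20 entries), the miR-148/130 group (14) and the group of miR-10 and miR-99 (14) held 0 members. The mesenchymal and endothelial list had 1 member among 9 entries, miR-199a-5p, with 29 counts against 859 for miR-199a-3p. The small totals limit every statement about these groups to their presence in a library.

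Of the members with a sequence, 31 (17.0%) were complementary to another mature miRNA, against 34 (8.92%) of the entries named in both tables. The match was made by sequence alone and positions were not compared, so opposite means complementary in this paragraph. End bases of an entry were left out of the match, so short entries could match more easily. 13 of these members lay opposite an entry of both tables with at least 1000 counts. Each of the 13 had at least 1 count, and they had 88 counts in all, with a median of 2. miR-3596d had the most, 41 counts opposite 5257092 of let-7f-5p. miR-3553 had 16 counts opposite 244631 of miR-183-5p, and miR-3574 had 10 opposite 284998 of miR-210-3p. The highest ratio was 0.0675% (miR-3560, 4 counts opposite miR-501-3p with 5922). The sources used here do not say how strand entered the counting. The seed of miR-3596d, UAUACAA, is also that of 5 counted let-7 and miR-98 3p arms, among them miR-98-3p with 3943 counts. Members were also short more often: 24 with a sequence (13.2%) had 19 bases or fewer, against 7 (1.84%) of the others, with a median of 22 bases in both.

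**Figure D5:**
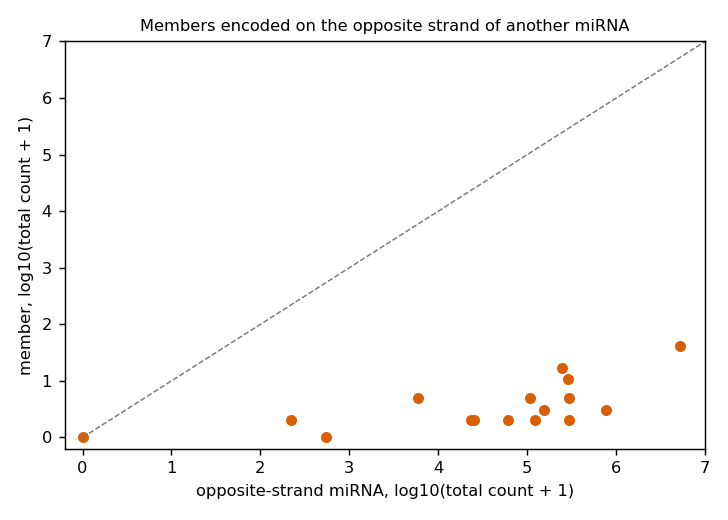
Total count over 23 libraries of each member (y axis) against that of the miRNA complementary to it by sequence (x axis), when that is named in both tables. Both are shown as log10(total + 1), and the dashed line marks equal counts. Apart from miR-9b-5p, at 0 with its partner also at 0, the points lie far below the line. The highest is miR-3596d with 41 counts opposite let-7f-5p.

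For entries named in both tables, the closeness of the counts depended on abundance. Among those with at least 1000 sRNAbench counts, the median ratio of Chimira to sRNAbench totals was 1.04, and 189 lay within 1.5-fold, 7 above and 3 below. Of the 213 with fewer sRNAbench counts, 75 (35.2%) lay within 1.5-fold, 135 were higher in the Chimira table, 2 were lower and 1 was at 0 in both. The members have no such second count, so their levels rest on the Chimira table alone. In these bulk libraries a lower level in each cell and a smaller number of cells that hold a miRNA cannot be told apart.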

How the data were processed

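RNA enriched in miRNA was purified from PC12 cells and made into 23 Illumina small RNA libraries, per the labels' protocols. The members are 215 of 627 Chimira entries, and 412 are named in both tables. Both tables hold raw read counts per mature miRNA as the authors deposited them; edgeR is the tool named in the submitters' processing notes. The sources used here do not give tool versions, the aligner, the miRBase release or the build. Columns named control were taken as the vector line and columns named WT as the α1ACT line, an assumption. Each table has 12 further columns of no sample here, which were not used. The nameless sRNAbench entry holds 0% of counts.

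The members, lists and named miRNAs were chosen with earlier results of these data known. The miRNAs named were the 10 most abundant members, those called, miR-335, miR-15a-5p and miR-30b-5p. Also named were the leading members of each list with counts in all 8 groups, and the 3 untested members of highest total. Those named after their values were seen were miR-448-3p, miR-3544, the miRNAs called without the filter, and those complementary to another miRNA.

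Counts of the whole Chimira table, with 2 columns exchanged, were fitted in edgeR 4.0.16 (R 4.3.3; limma 3.58.1) with filterByExpr, TMM scaling, 8 group means and robust quasi-likelihood dispersions. Contrasts were line at each time and over all times, 10 d against 6 h within a line, and F tests of time and of interaction, and an adjusted p under 0.05 counted as called. The common biological coefficient of variation was 11.8%. On simulated data with 305 entries in 10 runs, the test of the lines found 100% of 2-fold and 90.5% of 1.5-fold changes, and 4.90% of its calls were false. Changed entries were drawn from all 305, of which 13 were members, and no effect of time was simulated. These rates therefore do not describe the scarce members. No duplicate library was found over 22 replicate pairs (chi-square per degree of freedom 19.2 to 186). Alternatives were the columns as named, the pair left out, DESeq2 1.42.0, other scalings, no filter, a replicate block and leaving out each library; scaling by library totals was chosen after seeing the data. Reads carry no molecular identifiers, so intervals and limits cover counting error only.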

Additional observations from a re-analysis of the deposited data

How the results depend on the processing

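Of the counts of called members, those for the lines at 6 h, 24 h and 3 d and for the interaction were 0 in all 31 alternatives. The fit without the filter took every entry with at least 1 count. Its calls are therefore among 185 members, against 13 with the filter, and a higher count there is not a higher share. Shares of all entries called are given above for the main fit only. The 2 calls over the 4 times became 1 with the exchanged pair left out, 3 without the filter (miR-448-3p being added) and 1 to 2 on leaving out each library. At 10 d the count was 1 with DESeq2, 1 without the filter and 0 to 1 on leaving out each library. For 10 d against 6 h in the α1ACT line it was 6 without the filter and 1 to 4 on leaving out each library. In the vector line it was 0 with the columns as named, 0 with the pair left out, 2 without the filter and 0 to 2 on leaving out each library. The F test of time in the α1ACT line gave 3 to 6 on leaving out each library. In the vector line it gave 3 to 5, 1 with the columns as named and 2 with the pair left out. The cause of these changes was not tested.

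With a replicate block, the counts were the same as without it in every comparison (2 over the 4 times, 3 and 1 for 10 d against 6 h, 6 and 4 over time, 0 elsewhere). Same-numbered libraries did not deviate together throughout, as 38 of 77 pairs had a correlation over 0.1 (from -0.20 to 0.28). Between the lines at the same time, 7 of 11 pairs did (from -0.09 to 0.28, median 0.16). What a replicate number shares is not given by the labels, and the numbers are not taken to pair the libraries.

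Uncalled log2 changes turned sign in some fits. With the columns as named, 10 d against 6 h in the vector line was -0.0616 for miR-30b-5p, 0.36 for miR-30b-3p, -0.53 for miR-320-5p, 0.47 for miR-352 and 0.51 for miR-486. With the pair left out it was 0.32 for miR-30b-3p and 0.32 for miR-352. For miR-30b-3p it was 0.0605 with DESeq2, 0.0633 with relative log expression factors, 0.16 with upper-quartile factors and 0.0491 without the filter. On leaving out each library, the vector change ran from -0.1136 to 0.2112 for miR-30b-3p, from -0.9804 to 0.3147 for miR-352 and from -0.8042 to 0.0412 for miR-365-5p. The α1ACT change ran from -0.2123 to 0.0637 for miR-335 and from -0.3033 to 0.3939 for miR-3084b-3p. miR-3084b-3p also turned with DESeq2 (0.0801), relative log expression factors (0.0083), upper-quartile factors (0.0565) and no filter (0.0005). Between the lines miR-15a-5p was 0.0344 with upper-quartile factors and 0.0282 with library totals.

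Depth limits the rest: 168 members had under 10 counts over 23 libraries, and 202 were not tested.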

Other observations

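miR-448-3p, encoded in the serotonin receptor gene Htr2c, had the largest total of any member counted in 1 line only, and it was chosen after its values were seen. Its 13 counts all fell in the vector line, in 8 of 11 libraries with at most 2 counts each, and the 12 α1ACT libraries had 0. With its 13 counts taken as they are and 3 counts allowed over the α1ACT line, its level was 4.39-fold higher in the vector line. Counting error of the 13 was left out, so this value is not a lower limit. It was left out by the low-count filter, and without that filter the difference between the lines gave an adjusted p of 0.00688 in edgeR. The whole set held 41 members counted only in the vector line and 37 only in the α1ACT line.

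3 further untested members passed without the filter, as lower at 10 d than at 6 h in the α1ACT line: miR-6321 (adjusted p = 0.0257, edgeR), miR-181a-2-3p (0.0282) and miR-6216 (0.0491). They had 6, 6 and 5 counts in the α1ACT libraries of 6 h and 0 in those of 10 d. In the vector line they had 3, 1 and 3 counts at 6 h and 6, 1 and 4 at 10 d. These sums are not scaled for depth, and the vector line had 2 libraries at 6 h and 3 at 10 d.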
